A study of Mus musculus with 6 samples.

Results

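The enzymes that build purine and pyrimidine nucleotides were followed in cultured mouse CD4 T cells that had or had not been exposed to airborne fine particles (PM2.5). The group holds 31 genes, chosen by symbol from a list of known enzymes of nucleotide synthesis and salvage, out of 34745 genes in the deposited table. All 31 were found once in the table, and all 31 passed the filter on low counts that left 12967 genes for testing. The samples were 3 PM2.5 libraries and 3 PBS control libraries. Both groups were naive CD4 T cells from spleens of C57BL/6 mice, females aged 6 weeks, with no genetic modification named in the labels. All cultures stood on plates coated with antibodies to CD3 and CD28 for 4 days, in serum-containing (10%) RPMI medium to which mercaptoethanol (55 µM) was added. The medium of every culture held antibodies against IFN-gamma and IL-4 (5 µg/ml of either) and the cytokines IL-6 (20 ng/ml), IL-23 (10 ng/ml), TGF-beta (2 ng/ml) and IL-2 (5 ng/ml), a mixture that drives IL-17 producing (Th17) cells. After 6 h of stimulation the PM2.5 group was given a suspension of airborne particles at 100 µg/ml, and the control group PBS. The labels do not say whether the 3 libraries of a group came from separate cultures or animals, and p-values therefore reflect only how far these libraries differ, which may be technical.

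Cells make purines by building the ring stepwise on phosphoribosyl pyrophosphate (PRPP), an activated sugar, to reach IMP, from which AMP and GMP branch. Pyrimidines are built as a ring first and then joined to PRPP to give UMP, from which CTP is made. Ribonucleotide reductase turns ribonucleotides into the deoxynucleotides of DNA, and salvage enzymes recycle free bases and nucleosides. T cells switch on both routes when they are activated, since they must make RNA and copy their DNA before each division.

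Upstream sequences are shown for 4 members whose transcripts changed: the reductase subunit genes Rrm1 and Rrm2, which fell together, Adss, the largest rise, and Prps1, the only member window with a TGATGNAA match. Each is the 250 bases before the RefSeq transcript start on GRCm38.p6 (the mm10 assembly), 5′ to 3′ on the gene's strand, at chr7:102441445-102441694 for Rrm1 (+), chr12:24708004-24708253 for Rrm2 (+), chr1:177796510-177796759 for Adss (-) and chrX:140456353-140456602 for Prps1 (+). Capitals mark matches, on either strand, to 4 motifs that are spelled out after the sequences.
Rrm1: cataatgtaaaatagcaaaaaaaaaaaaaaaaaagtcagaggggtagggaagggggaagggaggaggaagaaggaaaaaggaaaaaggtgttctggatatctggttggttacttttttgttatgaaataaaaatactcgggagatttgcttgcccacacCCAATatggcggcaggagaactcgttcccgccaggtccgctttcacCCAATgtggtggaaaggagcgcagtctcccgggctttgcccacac
Rrm2: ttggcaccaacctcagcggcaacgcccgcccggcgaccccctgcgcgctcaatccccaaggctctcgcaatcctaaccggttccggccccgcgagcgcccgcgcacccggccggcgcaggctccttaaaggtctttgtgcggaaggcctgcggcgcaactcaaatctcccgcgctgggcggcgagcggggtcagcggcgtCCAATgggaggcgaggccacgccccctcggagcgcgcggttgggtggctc
Adss: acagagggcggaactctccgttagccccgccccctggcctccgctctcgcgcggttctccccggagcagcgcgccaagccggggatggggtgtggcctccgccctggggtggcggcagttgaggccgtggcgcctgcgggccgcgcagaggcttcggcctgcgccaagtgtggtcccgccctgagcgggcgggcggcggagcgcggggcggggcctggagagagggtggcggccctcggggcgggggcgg
Prps1: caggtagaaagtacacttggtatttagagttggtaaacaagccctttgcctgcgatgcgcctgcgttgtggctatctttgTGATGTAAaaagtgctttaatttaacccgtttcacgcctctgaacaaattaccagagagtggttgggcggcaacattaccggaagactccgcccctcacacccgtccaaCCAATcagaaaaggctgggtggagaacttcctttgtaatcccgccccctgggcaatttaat

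RefSeq upstream windows were at hand for 28 of the 31 members, 34 windows in all. CCAAT, the box bound by the factor NF-Y, stood in 8 of these 34 windows and in 33.8% of the 32851 windows of all genes. Its 8 genes were Prps1, Gart, Paics, Atic, Ctps2, Dtymk, Rrm1 and Rrm2, of which Gart rose, Paics and Atic did not pass and the other 5 fell. CACGTG, the E-box bound by Myc and its relatives, stood in 7 of the 34 windows (Paics, Atic, Impdh2, Nme1, Tyms and Dtymk) and in 6.02% of all windows. Of those 6 genes, Impdh2 rose, Nme1, Tyms and Dtymk fell and the others did not pass. TGATGNAA, the core of the element bound by ATF4 with its partners, stood in 1 member window, that of Prps1, and in 3.45% of all. The E2F-type sequences TTTCCCGC or TTTGGCGC stood in 1 member window, that of Ppat, and in 427 of the 32851 windows of all genes. No match overlapped another in the member windows, and a match here describes letters, not binding.

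The libraries held 25397965 to 27215853 counts in the PM2.5 group and 19511561 to 22353131 in the PBS group, so every PM2.5 library was deeper. A count of 0 allows up to 0.113 to 0.151 CPM in a single library (a floor of 3 counts, for counting error only), and CPM here means counts scaled to the TMM-adjusted library total. The 6 markers of CD4 T cells summed to 2039.7 to 2077 CPM in the PM2.5 libraries and 2431 to 2463 CPM in the PBS libraries, and the 5 Th17 markers to 2334 to 2819 against 3165 to 3239 CPM. Markers of CD8 and gamma-delta T cells (4 of 5 in the table) summed to 23.9 to 26.5 against 39.5 to 41.2 CPM, those of NK cells to 5.26 to 6.50 against 6.36 to 9.62 CPM and those of neutrophils to 0.564 to 0.705 against 5.19 to 6.14 CPM. The neutrophil sum was almost all Ly6g (means of 0.625 against 5.53 CPM), so it describes that gene rather than the type. Markers of B cells reached at most 0.451 against 1.65 CPM, those of macrophages and monocytes 3.45 against 6.06 CPM, those of dendritic cells 3.58 against 1.26 CPM and those of erythroid cells 0 against 0.133 CPM. Ms4a1, Lyz2, S100a8, S100a9, Elane, Siglech, Ncr1, Klra8, Hbb-bs, Hba-a1, Hba-a2 and Alas2 were at 0 in every library. Single markers of a type did not all move one way. Among those of CD4 T cells, Cd5 was higher with PM2.5 (log2 fold change 0.10) and the others lower. Of the Th17 markers, Il23r did not pass (0.03) and the others were lower. Zbtb46 was higher and Itgax lower among the dendritic cell markers, and Eomes higher and Klrk1 lower among those of NK cells. Cd8b1 was higher and Cd8a and Trdc lower among those of CD8 and gamma-delta T cells. The part of these markers in the results was not tested. In such bulk samples, fewer cells of a type and less RNA per cell cannot be told apart.

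Within the pathway, 6 of the 14 ring and base-branch genes were higher with PM2.5 and none lower, though some alternatives gave 1 or 3 lower. Of the 8 genes that supply deoxynucleotides, 7 were lower and 1 was higher, though some alternatives gave 5 or 6 lower. Both groupings were made after the values were seen. Of all genes tested, 35.2% were higher and 35.3% lower. Ppat, Gart, Gmps and Adss on the purine side and Cad and Ctps on the pyrimidine side rose 1.42- to 1.97-fold. Rrm1, Rrm2, Tk1 and Dck fell 1.47- to 1.80-fold, while the alternative reductase subunit gene Rrm2b rose 1.59-fold. Both PRPP synthetase genes fell, Prps2 by 2.57-fold and Prps1 by 1.47-fold. By the edgeR quasi-likelihood test at an adjusted p under 0.05, 9 members rose, 12 fell and the other 10 did not pass.

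These counts lie close to those of the whole transcriptome, in which 70.6% of genes passed, beside 67.7% of the members. Past 1.5-fold there were 8 members, 4 higher and 4 lower, where 35.6% of all genes tested were past that size, 15.3% higher and 20.3% lower. The members' median log2 fold change was -0.05, beside -0.01 for all genes tested, and the median size was 0.37 beside 0.43. The groups did not overlap in CPM for 22 of the 31 members and for 74.9% of all genes. With upper-quartile scaling, which moved the median of all genes to -0.12 and that of the members to -0.16, 8 members were higher and 17 lower.

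**Figure D1:**
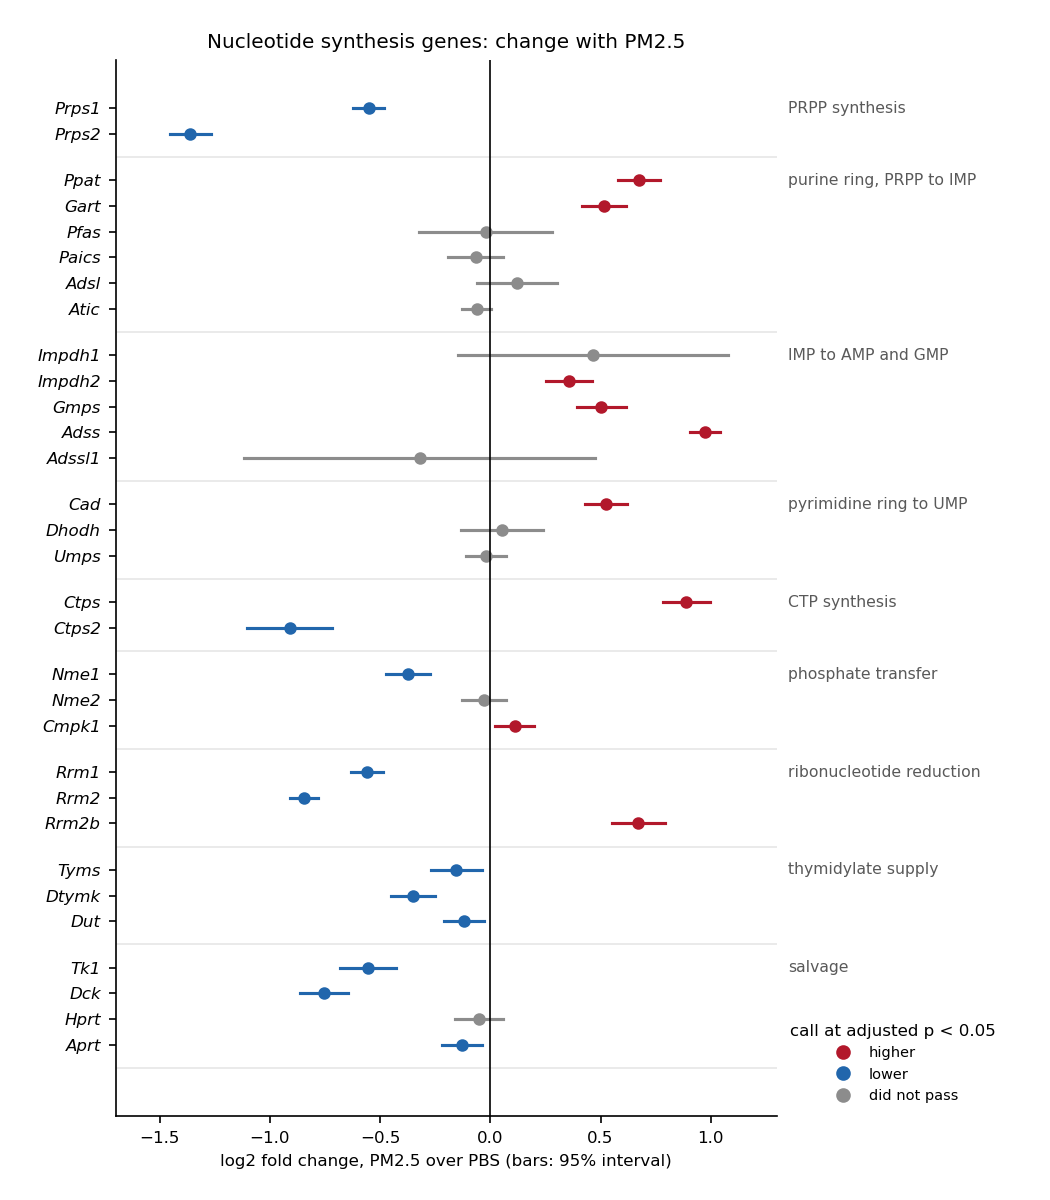
Log2 fold change of each of the 31 genes, PM2.5 over PBS, on the horizontal axis, with its 95% interval as a bar, genes grouped by step down the page. Red genes were higher and blue genes lower at an adjusted p under 0.05, and grey genes did not pass; the values run from -1.36 for Prps2 to 0.97 for Adss.

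PRPP synthesis comes first, since both ring pathways and base salvage draw on it. Prps2 (ENSMUSG00000025742, mm10 chromosome X, 167346322 to 167382749), an isoform of PRPP synthetase, had 35.4, 36.4 and 36.5 CPM in the PM2.5 libraries, against 90.1, 94.6 and 93.7 CPM in the PBS libraries. It was the largest fall among the 31 genes, with a log2 fold change of -1.36 (SE 0.04, edgeR adjusted p = 7.89e-10). Prps1 (ENSMUSG00000031432, chromosome X, 140456613 to 140476140), the other widely expressed isoform, had 140, 137 and 133 CPM in PM2.5 libraries, against 203, 199 and 200.1 CPM in PBS libraries. Every PM2.5 library was below every PBS library for both genes, and Prps1 changed by -0.55 (SE 0.03, edgeR adjusted p = 9.92e-08). Prps1 therefore outweighed Prps2 by more in exposed cells, with a count ratio within a library of 3.79 in the PM2.5 group and 2.16 in the PBS group.

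The supply of PRPP was also read in 10 neighbouring genes. They were those of the pentose phosphate pathway, of partner proteins of the synthetase and of a phosphoglucomutase, Pgm2. Their median log2 fold change was -0.07: 2 rose, 3 fell and 5 did not pass, where 35.2% of all genes tested rose and 35.3% fell. The list's count of falls was 6 with upper-quartile scaling and 5 with library totals, among genes of at least 5 CPM and in both limma fits. The risers were the regulatory partners Prpsap2 (29.2 CPM in PM2.5 and 23.2 CPM in PBS libraries, 0.33) and Prpsap1 (66.7 and 57.0 CPM, 0.23). Taldo1, the transaldolase of the pathway's non-oxidative arm, was at 69.2 CPM in PM2.5 and 96.0 CPM in PBS libraries (-0.47), and Pgm2, a phosphoglucomutase, at 36.5 and 49.5 CPM (-0.44). None of the 10 genes reached 1.5-fold.

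Of the 6 genes that carry PRPP to IMP, 2 rose and 4 did not pass, where 35.2% of all genes tested rose and 35.3% fell. Ppat (ENSMUSG00000029246, chromosome 5, 76913249 to 76951578) encodes the amidotransferase of the first committed step, at which the pathway is held back by its end products. It had 90.2, 94.3 and 87.6 CPM in the PM2.5 libraries, against 55.7, 58.4 and 56.5 CPM in the PBS libraries. The groups lay well apart, a log2 fold change of 0.67 (SE 0.04, edgeR adjusted p = 2.00e-07). Gart (chromosome 16, 91621186 to 91646952), a protein with 3 enzyme activities that uses folate to add carbon to the ring, had 168, 175 and 159 CPM in PM2.5 libraries, against 123, 115 and 114 CPM in PBS libraries. It rose by 0.51 (SE 0.05, edgeR adjusted p = 2.62e-06), with no overlap between the groups.

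The other 4 genes of the steps to IMP did not pass. Paics, which makes the next intermediates after Gart and Pfas, had 133, 151 and 132 CPM in PM2.5 libraries and 148, 149 and 140 CPM in PBS libraries (-0.07, 95% interval -0.19 to 0.06). Atic, which closes the ring, averaged 178 ± 2.68 CPM in PM2.5 and 186 ± 0.94 CPM in PBS libraries (SD, n = 3 each; -0.06, 95% interval -0.13 to 0.00). Its groups did not overlap, but the difference missed the threshold (edgeR adjusted p = 0.0867). In 5 of 14 alternatives Atic passed as lower. Adsl, a lyase that acts both here and in AMP synthesis, averaged 83.2 ± 2.52 CPM in PM2.5 and 76.5 ± 8.77 CPM in PBS libraries (0.12, 95% interval -0.06 to 0.30). Pfas, which adds nitrogen from glutamine, was at 80.1, 79.9 and 82.6 CPM in PM2.5 libraries and spread over 68.2, 83.7 and 94.4 CPM in PBS libraries (-0.02, 95% interval -0.32 to 0.28). The intervals of these 4 genes leave out a change as large as that of Ppat.

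Ppat and Paics lie head to head on chromosome 5 and share 272 exonic bases at their 5′ ends in GENCODE M21, on opposite strands. Without a stated strand setting, reads from those bases could be given to either. Their count ratio, a comparison added after the values were seen, was 0.655 in the PM2.5 group and 0.391 in the PBS group, a log2 difference of 0.74 with no overlap between libraries (exact two-sided permutation test, p = 0.10, the smallest that 3 against 3 allows).

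From IMP, 3 of the 5 branch genes rose and none fell, where 35.2% of all genes tested rose and 35.3% fell. Adss (ENSMUSG00000015961, chromosome 1, 177762962 to 177796511), the adenylosuccinate synthetase that starts the AMP branch, had 303, 291 and 292 CPM in PM2.5 libraries, against 150, 152 and 149 CPM in PBS libraries. The mean was 295.2 ± 6.67 CPM in PM2.5 and 150.2 ± 1.41 CPM in PBS libraries (SD, n = 3 each), with no overlap, a rise of 1.97-fold (log2 0.97, SE 0.03, edgeR adjusted p = 9.63e-10) and the largest among the 31 genes. On the GMP branch, Gmps, which turns XMP into GMP, had 178, 179 and 172 CPM in PM2.5 libraries, against 118, 135 and 120 CPM in PBS libraries (0.50, SE 0.05, edgeR adjusted p = 7.50e-06). Impdh2, an IMP dehydrogenase known to rise in dividing lymphocytes, had 46.3, 45.1 and 45.5 CPM in PM2.5 libraries, against 36.7, 35.5 and 34.7 CPM in PBS libraries (0.36, SE 0.05, edgeR adjusted p = 6.10e-05). For both genes the groups did not overlap, and both were under 1.5-fold.

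Impdh1, the second IMP dehydrogenase, varied within groups. It had 42.7, 61.3 and 62.6 CPM in the PM2.5 libraries and 45.5, 31.1 and 43.7 CPM in the PBS libraries. PM2.5 replicate 1 lay among the control values and PBS replicate 2 lay below the rest, so the groups overlapped and the gene did not pass (0.47, 95% interval -0.15 to 1.08, edgeR adjusted p = 0.136). Without PM2.5 replicate 1 it passed at 0.63 (edgeR adjusted p = 0.0394). Adssl1, the isozyme known from muscle, was near the floor with 13, 20 and 14 counts in PM2.5 libraries and 25, 14 and 11 counts in PBS libraries, and did not pass (-0.32, 95% interval -1.12 to 0.48).

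Of the 3 genes that lead to UMP, 1 rose and 2 did not pass, where 35.2% of all genes tested rose and 35.3% fell. Cad (ENSMUSG00000013629, chromosome 5, 31054780 to 31078479), the large protein that carries the first 3 activities of the pathway, had 307, 290.5 and 278 CPM in PM2.5 libraries, against 206, 194 and 209 CPM in PBS libraries. It rose by 0.52 (SE 0.04, edgeR adjusted p = 1.54e-06), with all exposed libraries above all controls. The next enzymes did not pass: Dhodh, the mitochondrial dehydrogenase, averaged 11.3 ± 0.92 CPM in PM2.5 and 10.9 ± 0.19 CPM in PBS libraries (SD, n = 3 each; 0.05, 95% interval -0.13 to 0.24). Umps, which forms UMP, averaged 106 ± 3.74 CPM in PM2.5 and 108 ± 4.02 CPM in PBS libraries (-0.02, 95% interval -0.11 to 0.07). Over the 14 genes from Ppat to Umps, a grouping made after the values were seen, 6 rose and none fell. Their share of rises was 42.9%, beside 35.2% of all genes tested, and 42.9% of them passed, beside 70.6%. With upper-quartile scaling 3 of the 14 fell, Paics, Atic and Umps, and 6 still rose. Library totals, genes of at least 5 CPM and both limma fits each gave 1 fall. So did the fits without PBS replicate 1 and without PM2.5 replicate 2.

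The CTP synthases moved in opposite directions. Ctps (ENSMUSG00000028633, chromosome 4, 120539868 to 120570276), whose human counterpart CTPS1 is required for the proliferation of lymphocytes, had 134, 132 and 128 CPM in PM2.5 libraries, against 76.0, 69.8 and 67.0 CPM in PBS libraries. Ctps2 (chromosome X, 162901238 to 163032508), its paralog, had 37.9, 33.9 and 30.4 CPM in PM2.5 libraries, against 63.2, 68.6 and 60.2 CPM in PBS libraries. Neither gene's groups overlapped: Ctps rose by 0.89 (SE 0.05, edgeR adjusted p = 5.54e-08) and Ctps2 changed by -0.91 (SE 0.08, edgeR adjusted p = 1.26e-05). The count ratio of Ctps to Ctps2 was 3.87 in the PM2.5 group and 1.11 in the PBS group. Per length, Ctps was the more abundant in both groups. It stood at 32.6 FPKM against 3.94 for Ctps2 in PM2.5 libraries, and at 18.4 against 7.73 FPKM in PBS libraries.

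**Figure D2:**
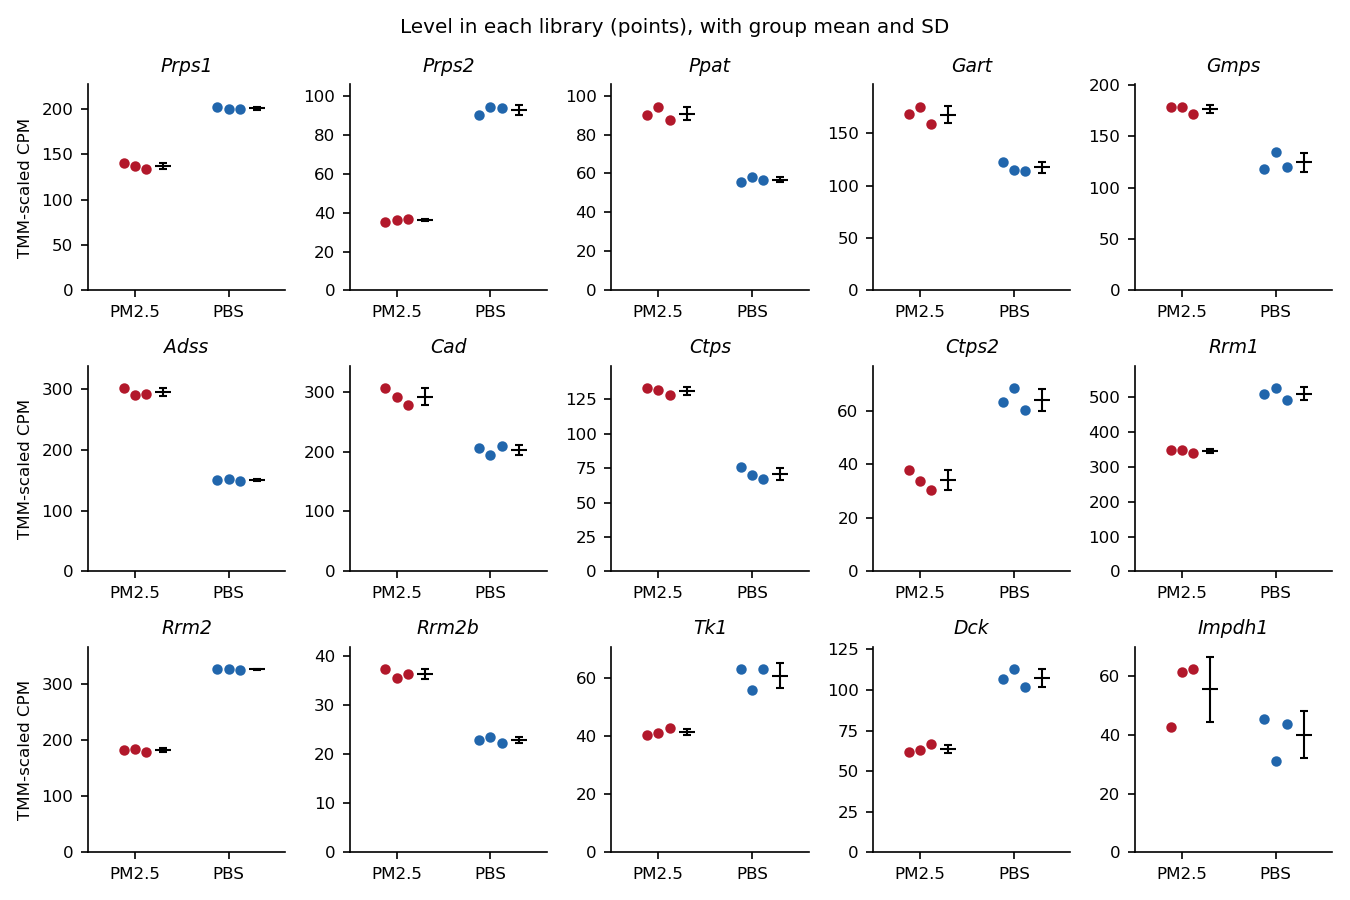
TMM-scaled CPM, on vertical axes that start at 0, of 15 genes in each PM2.5 (red) and PBS (blue) library, with the group mean and SD in black beside the points (n = 3 each). The groups do not overlap for 14 of the genes and overlap for Impdh1, where PM2.5 replicate 1 lies at 42.7 CPM. The 15 genes are a selection: over all 31 members the groups do not overlap for 22, beside 74.9% of all genes tested.

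Among the genes of phosphate transfer, the changes were small. Nme1, a nucleoside diphosphate kinase that regenerates triphosphates, averaged 65.4 ± 0.47 CPM in PM2.5 and 84.6 ± 4.21 CPM in PBS libraries (SD, n = 3 each) and fell by 0.37 on the log2 scale (SE 0.04, edgeR adjusted p = 2.63e-05). Its neighbour and paralog Nme2 averaged 209 ± 11.2 CPM in PM2.5 and 214 ± 8.31 CPM in PBS libraries and did not pass (-0.03, 95% interval -0.13 to 0.07). A read-through gene, Gm20390, shares 418 exonic bases with Nme1 and 573 with Nme2 and held 1494 counts over all libraries, so the values of both are uncertain. Cmpk1, which phosphorylates UMP and CMP, averaged 81.4 ± 2.09 CPM in PM2.5 and 75.4 ± 1.99 CPM in PBS libraries (0.11, SE 0.04, edgeR adjusted p = 0.0288). Its call ended in 10 of 14 alternatives, among them upper-quartile scaling, in which its sign turned and it stood at -0.0007.

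Other mono- and diphosphate kinases fell more often than they rose: of 11 genes tested of 13, 7 were lower, 3 higher and 1 did not pass (median -0.43). The shares over all genes tested were 35.3% lower and 35.2% higher. Ak1, the cytosolic adenylate kinase, was at 4.67 CPM in PM2.5 and 23.0 CPM in PBS libraries (-2.30), and the mitochondrial Nme4 at 2.80 and 8.48 CPM (-1.60). Ak3, a mitochondrial kinase of GTP and AMP, was at 24.4 CPM in PM2.5 and 36.2 CPM in PBS libraries (-0.57). Ak6, a nuclear kinase with a part in ribosome assembly, was higher at 147 against 105 CPM (0.48).

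The reductase subunits split by gene. Rrm1 (ENSMUSG00000030978, chromosome 7, 102441695 to 102469771), the large catalytic subunit, had 349.6, 349.9 and 339 CPM in PM2.5 libraries, against 510.3, 528 and 491 CPM in PBS libraries. Rrm2 (ENSMUSG00000020649, chromosome 12, 24708241 to 24714146), the small subunit made in S phase, had 183, 184 and 178 CPM in PM2.5 libraries, against 326, 327 and 325 CPM in PBS libraries. All exposed libraries lay below all controls: Rrm1 changed by -0.56 (SE 0.03, edgeR adjusted p = 1.18e-07) and Rrm2 by -0.84 (SE 0.03, edgeR adjusted p = 1.82e-09). Both carry CCAAT in the upstream sequences printed above, as did 33.8% of the windows of all genes, and its part in these falls was not tested.

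Rrm2b (ENSMUSG00000022292, chromosome 15, 37923952 to 37961318) encodes the small subunit that p53 can induce and that supplies deoxynucleotides outside S phase. It had 37.4, 35.4 and 36.2 CPM in PM2.5 libraries, against 22.8, 23.4 and 22.3 CPM in PBS libraries. It rose by 0.67 (SE 0.05, edgeR adjusted p = 1.34e-06), opposite to its partner and with no overlap. Counts of Rrm2 were 5.00 times those of Rrm2b in the PM2.5 group and 14.3 times in the PBS group, so Rrm2 remained the more abundant small subunit transcript in both. Per length the order was the same, with Rrm2 at 47.7 and Rrm2b at 4.88 FPKM in PM2.5 libraries and 89.6 and 3.21 FPKM in PBS libraries.

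Thymidylate supply was lower in all 3 of its genes, by small amounts, where 35.3% of all genes tested fell. Dtymk, the kinase that acts on dTMP, had 43.1, 42.5 and 41.7 CPM in PM2.5 libraries, against 54.8, 55.0 and 52.6 CPM in PBS libraries (-0.35, SE 0.04, edgeR adjusted p = 4.50e-05). Tyms, thymidylate synthase, averaged 39.2 ± 0.87 CPM in PM2.5 and 43.6 ± 2.10 CPM in PBS libraries (SD, n = 3 each; -0.15, SE 0.05, edgeR adjusted p = 0.0227). Dut, which removes dUTP and yields dUMP for Tyms, averaged 86.4 ± 2.70 CPM in PM2.5 and 94.0 ± 3.28 CPM in PBS libraries (-0.12, SE 0.04, edgeR adjusted p = 0.0236). Tyms lost its call with DESeq2 and without PBS replicate 2 or 3 or PM2.5 replicate 1 or 3, over a range of adjusted p of 0.00121 to 0.0748. Dut lost its call with DESeq2 and without PBS replicate 2 or PM2.5 replicate 2 or 3, over a range of 0.000562 to 0.0978.

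Salvage kinases of deoxynucleosides fell, and base salvage moved little. Dck (ENSMUSG00000029366, chromosome 5, 88764996 to 88783281), which rescues deoxycytidine and is needed for lymphocyte development in mice, had 61.6, 62.8 and 66.5 CPM in PM2.5 libraries, against 107, 113 and 102 CPM in PBS libraries. Tk1, the cytosolic thymidine kinase of S phase, had 40.6, 41.0 and 42.7 CPM in PM2.5 libraries, against 63.2, 56.0 and 63.2 CPM in PBS libraries. Neither gene's groups overlapped: Dck changed by -0.75 (SE 0.05, edgeR adjusted p = 2.27e-07) and Tk1 by -0.55 (SE 0.06, edgeR adjusted p = 9.26e-06). Afmid overlaps Tk1 on the opposite strand by 83 exonic bases and Ndufaf3 overlaps Impdh2 by 48, with 731 and 1075 counts over all libraries.

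Hprt, which salvages hypoxanthine and guanine, averaged 97.1 ± 4.71 CPM in PM2.5 and 101 ± 5.20 CPM in PBS libraries (SD, n = 3 each; -0.05, 95% interval -0.16 to 0.06). Aprt, which salvages adenine, averaged 87.2 ± 2.70 CPM in PM2.5 and 95.2 ± 3.26 CPM in PBS libraries (-0.13, SE 0.04, edgeR adjusted p = 0.0173). Aprt lost its call without PBS replicate 1 or PM2.5 replicate 1 or 3, over a range of 0.000423 to 0.0781. The 8 deoxynucleotide genes were Rrm1, Rrm2, Rrm2b, Tyms, Dtymk, Dut, Tk1 and Dck, a grouping made after the values were seen. Of these 8, 7 fell and Rrm2b rose, with a median of -0.45, where 35.3% of all genes tested fell and 35.2% rose. The count of falls was 5 with DESeq2 and without PBS replicate 2 or PM2.5 replicate 3. It was 6 without PBS replicate 3 or PM2.5 replicate 1 or 2.

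Genes of DNA copying were more often lower than higher, mostly by small amounts. The S phase and proliferation list has 22 genes, of which 3 rose, 13 fell and 6 did not pass (median -0.18). Of all genes tested, 35.2% rose and 35.3% fell. Only 1 gene of the list, Mcm6, was lower past 1.5-fold, where 20.3% of all genes tested were. The helicase subunit Mcm6 was at 336 CPM in PM2.5 and 588 CPM in PBS libraries (-0.81), Mcm4 at 203 and 270 CPM (-0.41), Mcm3 at 307 and 402 CPM (-0.39) and the topoisomerase Top2a at 976 and 1338 CPM (-0.45). Their part in the falls of the deoxynucleotide genes was not tested.

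Within-library ratios compare paralogs free of any scaling. For 5 of the 6 pairs of isozymes or subunits the PM2.5 libraries did not overlap the PBS libraries. The exact two-sided permutation p was 0.10 for each of these 5, the smallest that 3 against 3 allows (0.12 adjusted over the 6 pairs). Single genes did not overlap between the groups for 74.9% of all genes tested, and the share over other gene pairs was not computed. The log2 difference, PM2.5 minus PBS, was 1.80 for Ctps to Ctps2, 0.81 for Prps1 to Prps2, -0.34 for Nme1 to Nme2 and -1.51 for Rrm2 to Rrm2b. Adss to Adssl1 stood at 1.24 but rests on 11 to 25 counts of Adssl1 in each library. Impdh1 to Impdh2 overlapped between the groups (0.11, exact permutation p = 0.50).

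**Figure D3:**
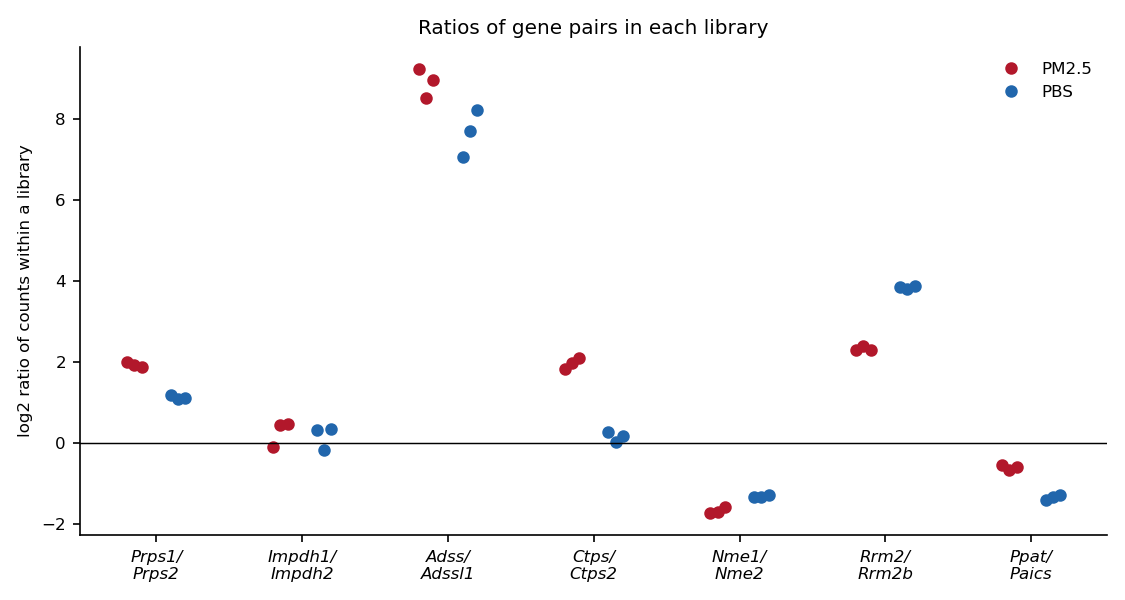
Log2 ratio of the counts of the first gene to the second within each PM2.5 (red) and PBS (blue) library, 1 point per library. The groups stand apart for every pair but Impdh1 and Impdh2, and the widest gap is that of Ctps to Ctps2, with mean ratios of 1.95 in PM2.5 and 0.15 in PBS libraries on the log2 scale.

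By length-scaled level, Nme2 was the most abundant of the 31 transcripts in both groups, at 134 ± 7.10 FPKM in PM2.5 and 143 ± 6.01 FPKM in PBS libraries (SD, n = 3 each). In PM2.5 libraries Aprt (98.4 FPKM), Rrm1 (84.6 FPKM) and Hprt (73.6 FPKM) followed, and in PBS libraries Rrm1 (130.3 FPKM), Aprt (112 FPKM) and Prps1 (94.2 FPKM). Prps2 stood at rank 23 with 8.58 FPKM in PM2.5 libraries and at rank 13 with 23.1 FPKM in PBS libraries, and Dck at ranks 18 (16.0 FPKM) and 8 (28.1 FPKM). Ctps stood at rank 9 (32.6 FPKM) in PM2.5 and rank 18 (18.4 FPKM) in PBS libraries. The lowest were Dhodh, at 1.01 and 1.02 FPKM in PM2.5 and PBS libraries, and Adssl1, at 0.232 and 0.303 FPKM.

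**Figure D4:**
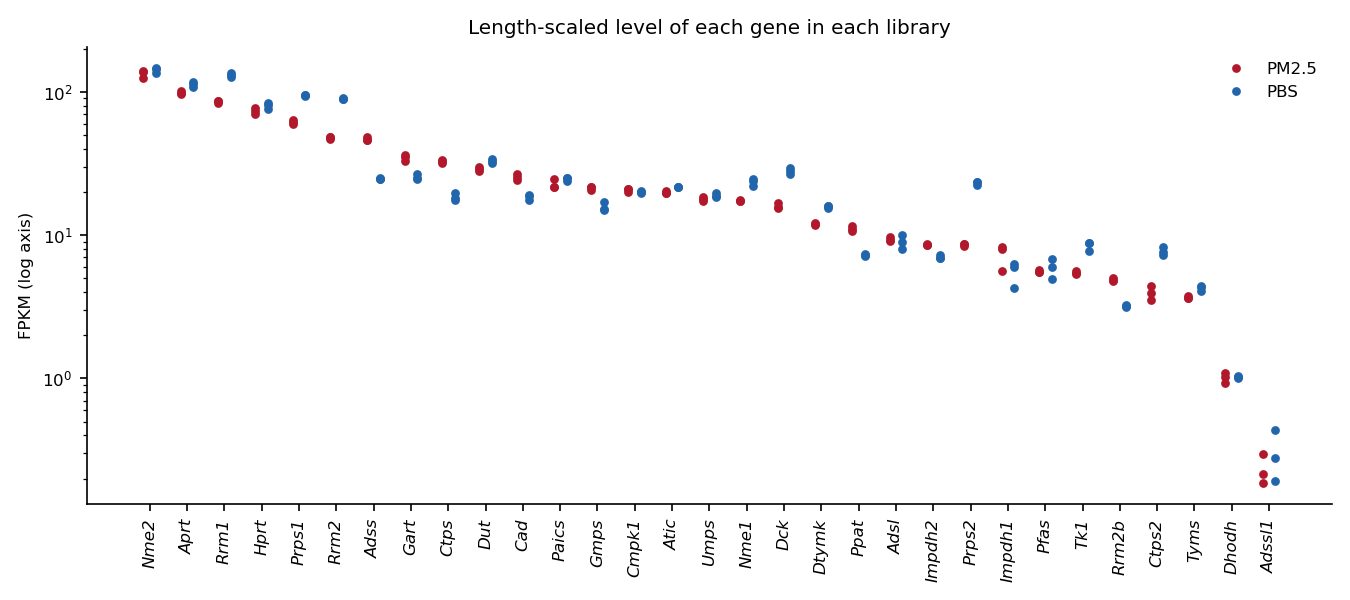
Deposited FPKM, on a log axis, of the 31 genes in each PM2.5 (red) and PBS (blue) library, ordered by the PM2.5 mean. Levels run from 134 FPKM for Nme2 to 0.232 FPKM for Adssl1 in the PM2.5 group, and Adss, Ctps and Prps2 show clear gaps between the groups.

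Serine synthesis and folate metabolism supply carbon to the purine ring. The median log2 fold change of their 15 genes was 0.82: 10 rose, 4 fell and 1 did not pass. By comparison, 35.2% of all genes tested rose and 35.3% fell. Mthfd2, a mitochondrial folate enzyme, was at 406 CPM in PM2.5 and 54.4 CPM in PBS libraries (2.90), Phgdh, the first enzyme of serine synthesis, at 365 and 79.3 CPM (2.20), Psat1, which follows it, at 407 and 102 CPM (2.00) and Shmt2, which moves a carbon from serine to folate, at 870 and 249 CPM (1.81). The widest gap in the list, picked after its values were seen, was that of Aldh1l2, a mitochondrial folate dehydrogenase, with 588, 548 and 555 counts in PM2.5 libraries, against 0, 8 and 8 counts in PBS libraries. Gart, which takes up such a carbon, changed by 0.51, and Atic, which takes up another, did not pass.

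Salvage and breakdown were mixed. Of 11 salvage genes tested of 12, 3 rose, 5 fell and 3 did not pass (median -0.11). All genes tested gave 35.2% rises and 35.3% falls. The purine nucleoside phosphorylase Pnp was at 48.4 CPM in PM2.5 and 111 CPM in PBS libraries (-1.19), the uridine phosphorylase Upp1 at 22.4 and 48.5 CPM (-1.11) and the mitochondrial kinase Dguok at 9.35 and 14.8 CPM (-0.66). Dctd, which deaminates dCMP, was higher at 9.86 against 6.08 CPM (0.70).

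Of 16 breakdown and pool-cleaning genes tested of 21, 4 rose, 8 fell and 4 did not pass (median -0.14). Among all genes tested, 35.2% rose and 35.3% fell. Samhd1, which hydrolyses deoxynucleotides, was at 221 CPM in PM2.5 and 369 CPM in PBS libraries (-0.74). Nt5e, the surface nucleotidase CD73, was at 269 and 702 CPM (-1.38), Nudt1, which clears oxidised nucleotides, at 5.70 and 10.99 CPM (-0.95) and the AMP deaminase Ampd3 at 0.822 and 2.76 CPM (-1.75).

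Among 5 nucleoside transporters tested of 7, 3 rose and 2 fell, beside 35.2% and 35.3% of all genes tested. Slc29a1, the main equilibrative carrier, was at 153 CPM in PM2.5 and 66.3 CPM in PBS libraries (1.20) and the lysosomal carrier Slc29a3 at 96.9 and 70.2 CPM (0.47). Slc28a2, a concentrative purine nucleoside carrier, was at 9.16 and 23.7 CPM (-1.37) and Slc29a4 at 0.689 and 3.59 CPM (-2.37).

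A list of 20 regulators, which holds the Myc network, the E2F and retinoblastoma families and Atf4, gave 6 rises, 11 falls and 3 that did not pass (median -0.22). Over all genes tested, rises made up 35.2% and falls 35.3%. Myc was at 216 CPM in PM2.5 and 141 CPM in PBS libraries (0.62), its partner Max at 233 and 105 CPM (1.14) and the Max-binding repressor Mnt at 153 and 82.8 CPM (0.89). Mxd1, which competes with Myc for Max, was at 45.0 and 230.0 CPM (-2.35), and Atf4, the stress factor that drives serine synthesis, at 1023 and 185 CPM (2.47).

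**Figure D5:**
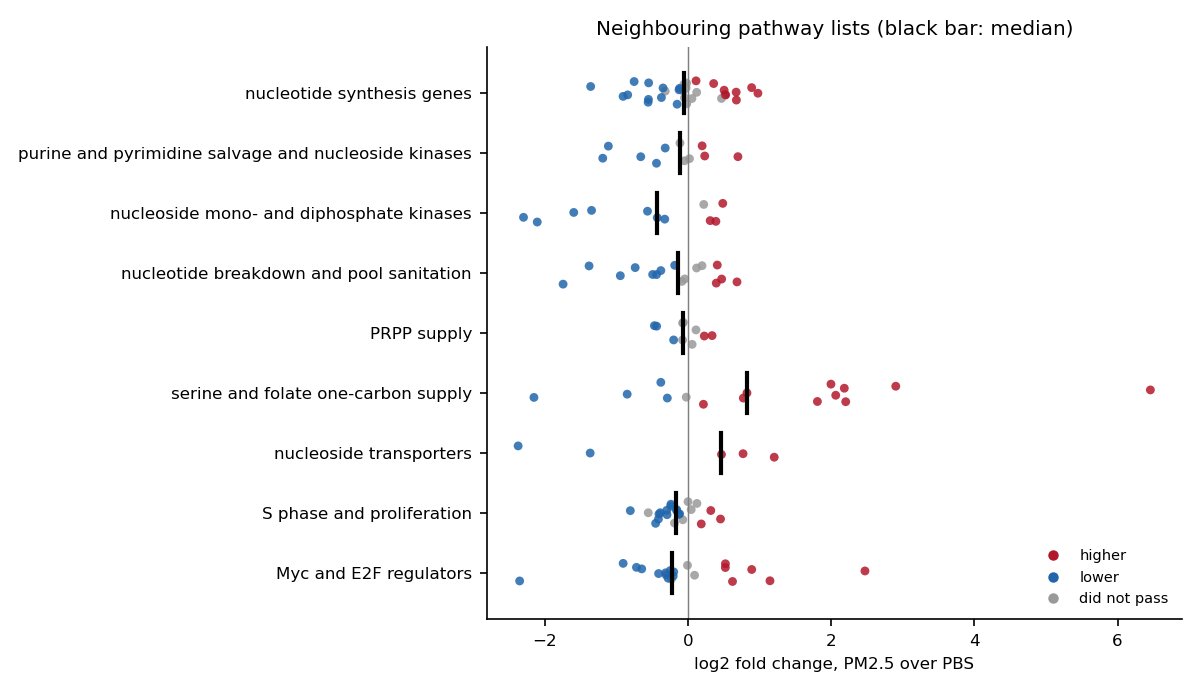
Log2 fold change, PM2.5 over PBS, of the 31 nucleotide synthesis genes (top row) and of the tested genes of 8 neighbouring lists, 1 point per gene, with the median as a black bar. Red points were higher and blue points lower at an adjusted p under 0.05; the serine and folate list has the highest median, 0.82, and the kinase list the lowest, -0.43.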

How the data were processed

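RNA-seq of 6 libraries, 3 PM2.5 and 3 PBS, was analysed. The authors deposited raw counts per Ensembl gene and FPKM for each library, per the file headers. The submitters' processing notes list TopHat2 2.0.6 and mm10. How reads were counted, with which annotation and strand setting, is not given in the sources used here. Genes were filtered with filterByExpr (minimum count 10, minimum total 15) and tested in edgeR 4.0.16 under R 4.3.3: TMM scaling, robust quasi-likelihood fit, two-sided F test of PM2.5 against PBS, Benjamini-Hochberg adjustment over 12967 genes, threshold 0.05. The fit was tested on simulated data. Each SE is the size of the log2 change divided by the root of its F. Alternatives used DESeq2 1.42.0, limma 3.58.1, other scalings, filters and left-out libraries. Paralog ratios add 0.5 to each count. Upstream sequences are RefSeq's on GRCm38.p6. Every member is described; each neighbouring list names up to 4 genes with the smallest adjusted p, plus Myc and Atf4. Members, lists and tests were chosen with earlier results of these data known.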

Additional observations from a re-analysis of the deposited data

How the results depend on the processing

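Of the 31 genes, 17 kept direction and side of the threshold in all 14 alternatives, and these 17 were called in the reported fit; the 33 genes that the naming rule took from the neighbouring lists kept theirs in each alternative that tested them, while Aldh1l2, named outside that rule, was not run. Of the other 14, Dhodh and Adssl1 were called in no alternative that tested them and changed only in sign, and 12 gained or lost a call under another tool, scaling or filter or without a single library; the cause was not tested. The members' median, -0.05, was at -0.12 with library totals, -0.16 with upper-quartile scaling, -0.11 among genes of at least 5 CPM and -0.12 in limma on log2(FPKM + 0.1), in step with the median of all genes for the scalings (-0.07 and -0.12 for the first 2). The log2 fold change of Dhodh turned negative under these 4 (-0.0113, -0.0581, -0.0125 and -0.0130) and limma on log2(FPKM + 1) (-0.0065), and that of Cmpk1 with upper-quartile scaling (-0.0007). Upper-quartile scaling also passed Paics, Atic, Umps, Nme2 and Hprt as lower. Upper-quartile scaling left 1 rise among the salvage genes, against 3. Among genes of at least 5 CPM, where fewer were tested, 1 serine and folate gene fell, against 4, and 1 transporter gene, against 2. With libraries left out in turn, 8777 to 8998 genes were called, 8 to 9 members rose and 9 to 12 fell. The log2 fold change then ran from -0.58 to 0.0576 for Adssl1, -0.0005 to 0.12 for Dhodh, -0.0428 to 0.0138 for Umps, -0.14 to 0.0894 for Pfas and -0.0605 to 0.0224 for Nme2, and the Impdh1 to Impdh2 difference from -0.0605 to 0.30.

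Libraries of the same replicate number shared little variation: their deviations from the group means correlated at 0.0134, 0.0072 and 0.045. The labels do not give their origin, and a common animal or culture cannot be told from these values. With the number as a block, 9002 genes were called against 9149 without it, and the members again gave 9 rises and 12 falls. Few counts limit Adssl1 (11 to 25 per library), and both groups have only 3 libraries.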
